A study of Rattus norvegicus with 9 samples.

Results

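The creatine and adenine nucleotide buffer of muscle was followed through 8 genes, Ckm, Ckmt2, Ckb, Slc6a8, Gatm, Ak1, Ampd1 and Ampd3. They were chosen by name and found by matching the NCBI gene ID in the files to the RefSeq symbol, and all 8 were among the 13752 gene IDs measured. Messenger RNA of the gastrocnemius, a mixed calf muscle supplied by the sciatic nerve, had been sequenced from male rats aged 8 weeks in 3 groups of 3 libraries. SHAM animals had a sham operation and DN animals a sciatic nerve injury. DN-SM animals had the same injury and then daily electrical stimulation of the left leg through surface electrodes, under pentobarbital, for 4 weeks from the day of surgery (25 V, 1 mA, 2 Hz, pulse width 300 ms). SHAM and DN animals were anaesthetised and carried the electrodes for 10 minutes with no current. The labels give neither the strain, the kind of nerve injury, nor when SHAM and DN muscle was taken, and do not tie each library to its own animal, so p-values measure the spread between these libraries.

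Creatine kinases move a phosphate group between ATP and creatine, so that phosphocreatine can refill ATP within moments of contraction. Adenylate kinase joins a pair of ADP molecules into ATP and AMP, and AMP deaminase removes the AMP by turning it into IMP. Muscle makes little creatine of its own and takes it up from the blood. Fast glycolytic fibres are known for high cytosolic creatine kinase and AMP deaminase, and oxidative fibres for the mitochondrial creatine kinase.

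Library totals ran from 7926445 to 8893843 expected counts, and all 8 genes passed the filter on low counts, with 10129 genes tested. Acta1, the skeletal muscle actin, was at 63509 FPKM or more in every library, which bears out skeletal muscle but not which muscle. FPKM is fragments scaled to transcript length and library size. The SHAM libraries stood apart from one another in fibre genes. Myh4, the fastest myosin heavy chain, was at 1752, 6969 and 2331 FPKM in SHAM replicates 1, 2 and 3, and the slow myosin Myh7 at 1477, 416 and 1059 FPKM. In the whole muscle sampled here, fewer fibres of a type and less RNA per fibre cannot be told apart. Each test of a member was also computed without each library.

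The cytosolic enzyme Ckm (gene ID 24265), which rebuilds ATP at the myofibrils, was the most abundant member and had the second highest mean FPKM of all genes measured. It took 3.47% to 4.56% of the counts of a library. Its level was 25347, 31811 and 28205 FPKM in SHAM replicates 1 to 3, 31720, 27805 and 24150 for DN, and 28861, 28353 and 28752 for DN-SM. All 3 groups overlapped, and the DN-SM libraries lay closer together than those of the other groups. The log2 fold change from the fit of all libraries was -0.11 in DN against SHAM (95% interval -0.53 to 0.32, edgeR adjusted p = 0.791), and 0.13 in DN-SM against DN (-0.30 to 0.55, adjusted p = 0.763). Changes of either sign within these intervals could not be told from no change. The sign in DN against SHAM turned without SHAM replicate 2 (0.02) and without DN replicate 3 (0.02).

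Ckmt2 (gene ID 688698), the sarcomeric creatine kinase held between the mitochondrial membranes, was highest in injured muscle without stimulation, by a difference that did not pass. It was at 2199, 1213 and 1923 FPKM in the SHAM libraries, at 2228, 2397 and 2837 in those of DN, and at 1905, 1781 and 2075 in those of DN-SM. Every DN library was above every SHAM and every DN-SM library, although DN replicate 1 exceeded SHAM replicate 1 by little. Of all genes tested, 15.9% were higher in DN than in SHAM without overlap, and 21.3% lower in DN-SM than in DN. The log2 fold change of Ckmt2 was 0.42 in DN against SHAM (SE 0.168, unadjusted p = 0.0264) and did not pass after adjustment (adjusted p = 0.165). It was 0.23 without SHAM replicate 2, the lowest library for this gene. For DN-SM against DN it was -0.27 (95% interval -0.64 to 0.09, adjusted p = 0.402). The value for DN-SM against SHAM, 0.15, was -0.03 without SHAM replicate 2.

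Ckb (gene ID 24264), the brain-type cytosolic creatine kinase that also occurs in smooth muscle, was present at a small part of the level of Ckm. It was at 32.8, 12.3 and 25.7 FPKM in the SHAM libraries, at 24.5, 24.1 and 23.5 in those of DN, and at 17.8, 19.2 and 16.3 in those of DN-SM. The SHAM libraries spread over a wider range than both other groups together. The DN-SM libraries lay below those of DN without overlap, as did 21.3% of all genes tested. For DN-SM against DN the log2 fold change was -0.34 (SE 0.237, adjusted p = 0.46). In DN-SM against SHAM it was -0.36 (adjusted p = 0.567), and without SHAM replicate 2, the lowest library for Ckb, it was -0.65 and passed (adjusted p = 0.0386). In DN against SHAM Ckb was at -0.02 (adjusted p = 0.979), and its sign turned under other scalings and with single libraries left out. Summed FPKM of 5 smooth muscle markers ran from 140.0 to 255.0 in SHAM, 246.3 to 266.7 in DN and 147.5 to 214.0 in DN-SM, lowest in SHAM replicate 2 as Ckb was. In DN and in DN-SM the order was not shared, since replicate 3 of each had the highest sum of its group (266.7 and 214.0) and the lowest Ckb. The low sum in SHAM replicate 2 was not particular to smooth muscle. That library was also the lowest for the summed Schwann cell and nerve (74.2), macrophage and leukocyte (27.8), endothelial (85.5) and adipocyte markers (72.5). The same held for skeletal muscle and slow fibre markers, but not for fibroblast, red blood cell or fast fibre markers. The part of smooth muscle in the Ckb values was not tested.

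The promoters of the 3 creatine kinases are given here from RefSeq (assembly GRCr8). Each window is the 250 bases before and 50 after the start of the gene, 5′ to 3′ on the strand of the gene. The submitters' processing notes name the build rn6, so these positions do not apply to the files. Ckm lies at chr1:88189211-88189510 on the plus strand, Ckmt2 at chr2:24845462-24845761 on the minus strand and Ckb at chr6:136553415-136553714 on the minus strand. Capitals mark the E-box, CANNTG, which myogenic factors bind, the MEF2 site, and the nuclear receptor core AGGTCA, each searched on both strands with overlaps allowed.
Ckm: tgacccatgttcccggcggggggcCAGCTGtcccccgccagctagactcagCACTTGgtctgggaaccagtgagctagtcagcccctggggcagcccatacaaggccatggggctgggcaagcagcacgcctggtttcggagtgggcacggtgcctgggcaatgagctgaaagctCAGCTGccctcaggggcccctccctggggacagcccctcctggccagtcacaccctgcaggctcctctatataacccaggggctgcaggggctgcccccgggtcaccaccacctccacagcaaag
Ckmt2: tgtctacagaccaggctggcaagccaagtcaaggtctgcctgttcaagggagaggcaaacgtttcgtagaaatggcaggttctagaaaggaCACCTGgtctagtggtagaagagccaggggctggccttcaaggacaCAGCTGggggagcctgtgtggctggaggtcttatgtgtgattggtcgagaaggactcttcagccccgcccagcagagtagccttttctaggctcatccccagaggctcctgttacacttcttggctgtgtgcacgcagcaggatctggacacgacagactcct
Ckb: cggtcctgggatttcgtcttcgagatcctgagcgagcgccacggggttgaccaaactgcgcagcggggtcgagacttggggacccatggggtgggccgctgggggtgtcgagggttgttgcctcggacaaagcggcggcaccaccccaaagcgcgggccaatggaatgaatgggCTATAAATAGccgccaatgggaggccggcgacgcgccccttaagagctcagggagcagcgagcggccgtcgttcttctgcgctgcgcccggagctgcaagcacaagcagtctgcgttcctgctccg
The Ckm window held 3 E-boxes and the Ckmt2 window 2, and 72.1% of the 33469 promoters of this length held at least 1. The Ckb window held 1 MEF2 match, which 3.29% of the promoters did, and no E-box. None of these windows held AGGTCA, found in 16.2% of promoters. A match describes the letters only.

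**Figure D1:**
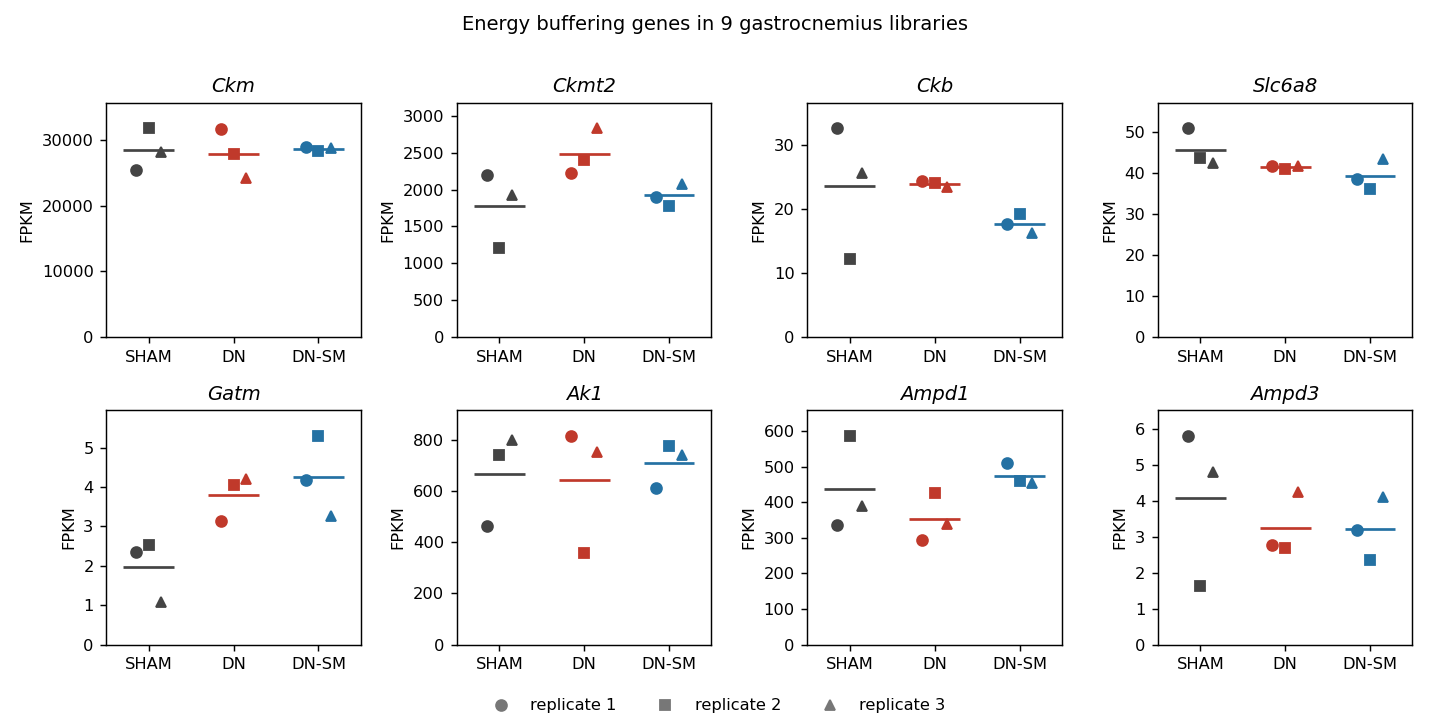
FPKM of the 8 energy buffering genes (vertical axes, each from 0) in SHAM, DN and DN-SM libraries (horizontal axis). Points are libraries, shaped by replicate number, and bars are group means; SHAM replicate 2 is the lowest of the 9 libraries for Ckmt2, Ckb and Ampd3 (1213, 12.3 and 1.62 FPKM) and the highest for Ckm and Ampd1 (31811 and 589).

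The supply of creatine was measured through its transporter and its synthesis. Slc6a8 (gene ID 50690), the plasma membrane creatine transporter, was measured with the most precision of the 8 genes. It was at 51.0, 43.8 and 42.3 FPKM in the SHAM libraries, at 41.7, 41.0 and 41.8 in those of DN, and at 38.6, 36.1 and 43.3 in those of DN-SM. DN lay below SHAM without overlap, by a small margin, as did 6.91% of all genes tested, while DN-SM overlapped with both. The log2 fold change was -0.21 in DN against SHAM (SE 0.102, 95% interval -0.43 to 0.02, adjusted p = 0.258) and -0.19 in DN-SM against SHAM (adjusted p = 0.469). The intervals for Slc6a8 were the narrowest, 0.44 to 0.45 wide on the log2 scale.

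Gatm (gene ID 81660), the amidinotransferase that takes the first step of creatine synthesis and is known mainly from kidney, had the largest log2 fold change of the 8 genes in DN and in DN-SM against SHAM. It was a rare transcript, at 22 to 106 expected counts per library. Its level was 2.34, 2.53 and 1.07 FPKM for SHAM, 3.14, 4.06 and 4.21 for DN, and 4.17, 5.31 and 3.26 for DN-SM. All 6 libraries of injured muscle were above all 3 SHAM libraries. Of all genes tested, 15.9% were higher in DN than in SHAM without overlap, and 7.49% in DN-SM than in SHAM. The share of genes with both was not counted. Group means were 1.98 ± 0.794 FPKM for SHAM, 3.80 ± 0.579 for DN and 4.25 ± 1.03 for DN-SM (SD, n = 3). The log2 fold change was 0.87 in DN against SHAM (SE 0.289, 95% interval 0.24 to 1.5, adjusted p = 0.106) and 1.13 in DN-SM against SHAM (SE 0.288, 0.50 to 1.75, adjusted p = 0.102), and neither passed. In DN-SM against SHAM, Gatm passed with DESeq2 (1.11, adjusted p = 0.0209) and without SHAM replicate 2 (1.41, adjusted p = 0.0389), with adjusted p up to 0.29 over the other alternatives. SHAM replicate 3, with 22 counts, was the lowest library, and without it the values against SHAM were 0.58 for DN and 0.84 for DN-SM. Between DN-SM and DN it was 0.26 (adjusted p = 0.637). The promoter of Gatm, shown because this gene had the largest difference, lies at chr3:130129044-130129343 on the minus strand (GRCr8) and held 1 E-box, in capitals.
Gatm: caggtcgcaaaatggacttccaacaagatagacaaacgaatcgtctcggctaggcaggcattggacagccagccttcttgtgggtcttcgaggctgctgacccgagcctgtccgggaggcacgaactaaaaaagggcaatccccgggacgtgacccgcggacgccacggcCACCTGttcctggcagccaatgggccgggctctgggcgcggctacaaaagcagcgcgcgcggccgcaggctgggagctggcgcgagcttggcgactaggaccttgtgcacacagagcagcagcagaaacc
The enzyme of the second step, Gamt, averaged 46.0 ± 3.0 FPKM over SHAM, 52.5 ± 5.21 over DN and 46.1 ± 1.01 over DN-SM libraries. Its log2 fold change was 0.12 in DN against SHAM (adjusted p = 0.598), -0.10 in DN-SM against DN (0.693) and 0.02 in DN-SM against SHAM (0.96).

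Ak1 (gene ID 24183), the cytosolic adenylate kinase of muscle, had a single low library in each of the SHAM and DN groups. It was at 463, 742 and 802 FPKM in the SHAM libraries, at 819, 359 and 754 in those of DN, and at 612, 780 and 744 in those of DN-SM. The low libraries were SHAM replicate 1 and DN replicate 2, and all groups overlapped. The log2 fold change was -0.15 in DN against SHAM (SE 0.326, 95% interval -0.88 to 0.58, adjusted p = 0.828). It turned to 0.13 without DN replicate 2 and to 0.01 without SHAM replicate 3, and was -0.04 without SHAM replicate 2. Without SHAM replicate 1 it was -0.41, and without DN replicate 1 it was -0.42. Between DN-SM and DN it was 0.24 (-0.49 to 0.97, adjusted p = 0.733), and -0.05 without DN replicate 2. Log2 CPM is a count scaled by library total and TMM factor, on the log2 scale. Within DN its SD for Ak1 was 0.653, above 0.454, the 90th percentile of all genes tested.

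Ampd1 (gene ID 25028), the AMP deaminase of adult skeletal muscle, was lowest in DN. It was at 337, 589 and 391 FPKM in the SHAM libraries, at 294, 427 and 340 in those of DN, and at 511, 461 and 455 in those of DN-SM. DN-SM lay above DN without overlap, as did 11.4% of all genes tested, and SHAM overlapped with both. For DN-SM against DN the log2 fold change was 0.52 (SE 0.231, unadjusted p = 0.0442), which did not pass in the fit of all 9 libraries (adjusted p = 0.269). Fitted with the SHAM libraries left aside, it was 0.53 and passed (adjusted p = 0.042). Over the other alternatives the adjusted p reached 0.507. In DN against SHAM the log2 fold change was -0.41 (adjusted p = 0.323). It was -0.63 without SHAM replicate 1 (edgeR adjusted p = 0.106), and -0.09 without SHAM replicate 2, the highest library for Ampd1. The value for DN-SM against SHAM was 0.11, and 0.44 without that library. The promoter of Ampd1 lies at chr2:193287082-193287381 on the plus strand (GRCr8) and held 2 E-boxes and 1 MEF2 match with the letters of the match in Ckb.
Ampd1: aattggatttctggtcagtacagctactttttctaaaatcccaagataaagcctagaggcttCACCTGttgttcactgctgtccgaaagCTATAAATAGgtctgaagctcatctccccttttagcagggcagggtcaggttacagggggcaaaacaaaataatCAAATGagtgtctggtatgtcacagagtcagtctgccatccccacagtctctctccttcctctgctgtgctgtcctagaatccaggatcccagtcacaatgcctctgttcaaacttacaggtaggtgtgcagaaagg

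Ampd3 (gene ID 25095), the AMP deaminase of red blood cells, is known in mice as a gene that is raised in denervated muscle. Here it was at 5.82, 1.62 and 4.81 FPKM in the SHAM libraries, at 2.77, 2.70 and 4.25 in those of DN, and at 3.19, 2.34 and 4.12 in those of DN-SM. The DN and DN-SM libraries lay within the range of SHAM. The log2 fold change was -0.39 in DN against SHAM (SE 0.367, 95% interval -1.20 to 0.43, adjusted p = 0.584), with -0.75 without SHAM replicate 2 and -0.14 without SHAM replicate 1. It was 0.09 in DN-SM against DN (-0.74 to 0.92, adjusted p = 0.919). The value for DN-SM against SHAM was -0.29, and -0.66 without SHAM replicate 2. Counts of 56 to 183 per library limit what could be detected for this gene. Summed FPKM of 5 red blood cell markers, among them haemoglobin Hbb and Alas2, ran from 10249 to 17951 in SHAM, 5346 to 13710 in DN and 4051 to 17906 in DN-SM. They were highest in SHAM replicate 1, as Ampd3 was. DN-SM replicate 2 had nearly the same sum (17906) with Ampd3 at 2.34 FPKM, and DN replicate 3 a low sum (5346) with Ampd3 at 4.25 FPKM. The part of red blood cells in the Ampd3 values was not tested.

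Set side by side, none of the 8 genes passed an adjusted p of 0.05 in DN against SHAM, where 4.26% of the 10129 genes tested did, 2.57% higher and 1.70% lower. An unadjusted p under 0.05 was reached by 2 of 8 members, Gatm and Ckmt2, and by 22.3% of all genes in edgeR. Libraries of DN and SHAM did not overlap in FPKM for 3 members (Ckmt2, Slc6a8 and Gatm) and for 22.8% of genes. Of the members Ckmt2 and Gatm were higher in DN, as were 15.9% of genes, and Slc6a8 lower, as were 6.91%. Read against these shares, 2 and 3 of 8 are no result about the members. The median log2 fold change of the members was -0.13, with 2 above and 6 below 0, beside -0.01 over all genes. Their median size without sign was 0.30, beside 0.24. DESeq2 and limma, with or without sample weights, also called 0 members.

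For DN-SM against DN, 0 of 8 members passed in the fit of all libraries, beside 0.00987% of all genes. Ampd1 was the 1 member with an unadjusted p under 0.05, which 17.6% of genes reached. DN and DN-SM did not overlap for Ckmt2 and Ckb, lower in DN-SM, and for Ampd1, higher in DN-SM, which is 3 of 8 beside 32.7% of all genes (21.3% lower and 11.4% higher). The median log2 fold change of the members was 0.11, with 6 above and 2 below 0, beside -0.01 over all genes. DESeq2 and limma called 0 members, and the edgeR fit of these 2 groups alone called 1, Ampd1, beside 7.21% of the genes tested in that fit.

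For DN-SM against SHAM the edgeR count was also 0 of 8 members, beside 0.839% of all genes (0.415% higher and 0.425% lower), and DESeq2 called 1, Gatm, beside 3.11% of genes. Without SHAM replicate 2 edgeR called 2, Gatm and Ckb, beside 1.33% of genes. Gatm was also the 1 member with an unadjusted p under 0.05, which 12.8% of genes reached, and the 1 member whose libraries did not overlap, beside 16.8% of genes (7.49% higher and 9.34% lower). The median was 0.05, beside 0.02 over all genes. The comparisons share their groups, so a high or low SHAM or DN library enters a pair of them.

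**Figure D2:**
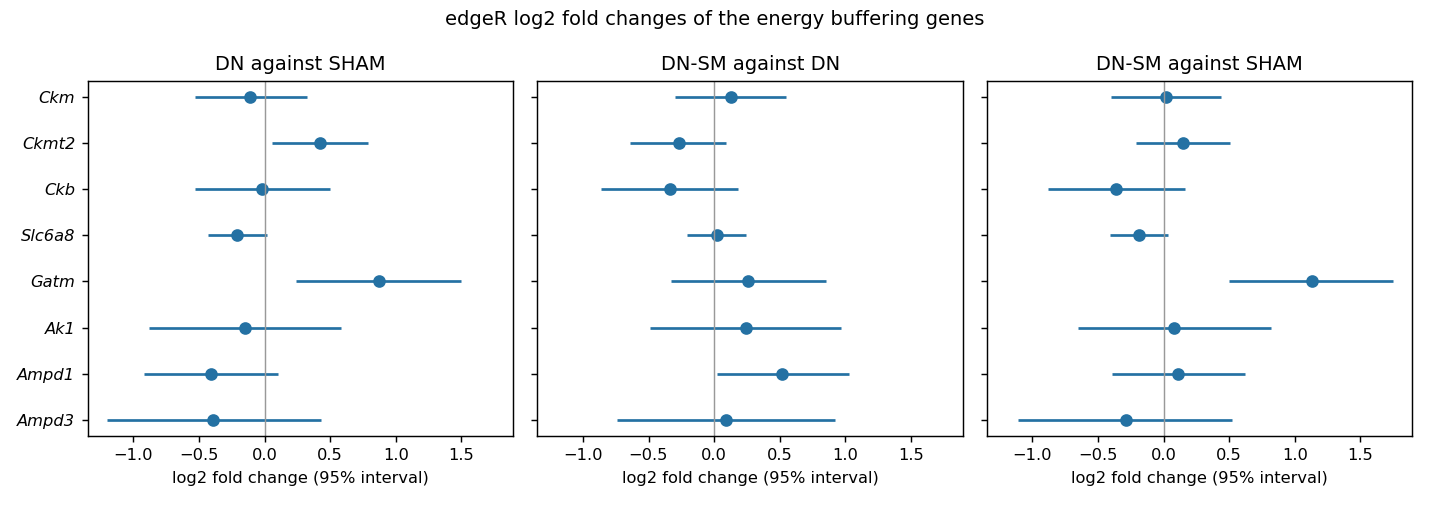
Log2 fold changes (horizontal axis) of the 8 genes in the 3 comparisons, with 95% intervals from edgeR's quasi-likelihood fit as lines and the fitted value as a point. The intervals of Gatm lie above 0 in both comparisons with SHAM (0.24 to 1.5 and 0.50 to 1.75), that of Ckmt2 in DN against SHAM (0.06 to 0.79) and that of Ampd1 in DN-SM against DN (0.02 to 1.03), and no adjusted p passed.

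**Figure D3:**
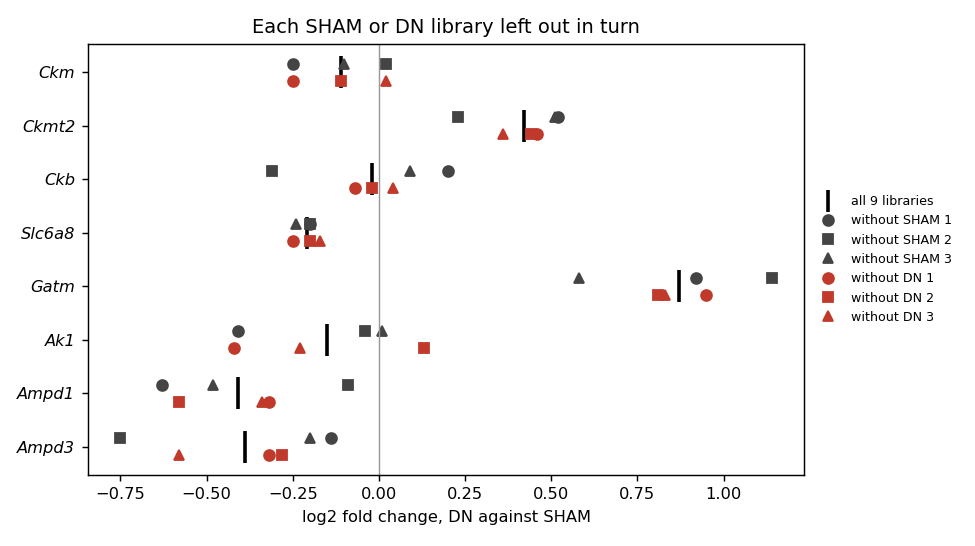
Log2 fold change in DN against SHAM (horizontal axis) of each gene with all 9 libraries (black bar) and with 1 SHAM (grey) or DN (red) library left out. Without SHAM replicate 2 Ampd1 moved from -0.41 to -0.09, Ampd3 from -0.39 to -0.75 and Ckb from -0.02 to -0.31, while Gatm stayed above 0 with each library left out.

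Several members spread widely within a group. Within SHAM the SD of log2 CPM was 0.884 for Ampd3, 0.631 for Ckb and 0.626 for Gatm, above 0.622, the 90th percentile of all genes. It was 0.048 for Slc6a8, and the median over all genes was 0.251. Within DN-SM the SD was 0.024 for Ckm, 0.104 for Ampd1 and 0.405 for Ampd3, beside a median of 0.171. Within SHAM 7 of the 8 members exceeded the median of all genes, in DN 4 and in DN-SM 3.

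The isoforms of each enzyme were compared as shares of FPKM, which is scaled to length. Ckmt2 made up 7.97%, 3.67% and 6.38% of the creatine kinase FPKM in SHAM, 6.56%, 7.93% and 10.5% for DN, and 6.19%, 5.91% and 6.73% for DN-SM. The DN-SM shares lay within the SHAM range, and the highest share was in DN replicate 3. The difference between the means was 2.32 percentage points in DN against SHAM (exact permutation test, two-sided, p = 0.3) and -2.06 in DN-SM against DN (exact p = 0.2). Ckb made up 0.0371% to 0.119% in SHAM, 0.072% to 0.0872% in DN and 0.0528% to 0.0637% in DN-SM. All 3 DN-SM shares of Ckb were below all 3 DN shares (exact p = 0.1, the smallest that 3 against 3 can give). Ckmt1, the other mitochondrial form, was at 0.16 FPKM or less in every library. Ampd1 held nearly all of the AMP deaminase FPKM, with Ampd3 at 0.273% to 1.69% in SHAM, 0.624% to 1.22% in DN and 0.501% to 0.893% in DN-SM. The Ampd3 share differed by -0.134 points in DN against SHAM (exact p = 0.9) and by -0.252 in DN-SM against DN (exact p = 0.2). Over the 9 share comparisons made, the lowest Benjamini-Hochberg adjusted p from these exact tests was 0.6.

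**Figure D4:**
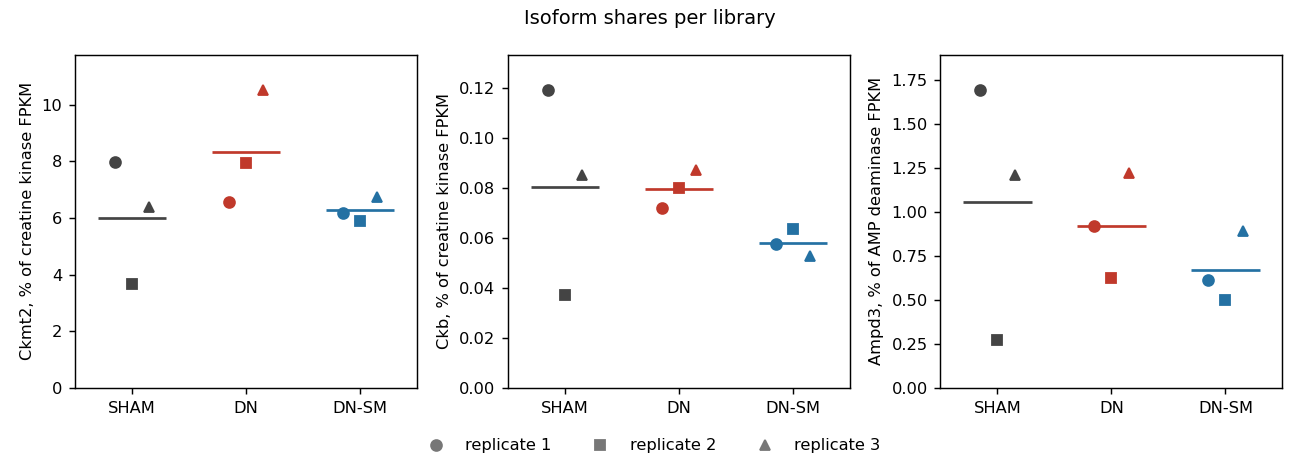
Share of Ckmt2 and Ckb in the summed FPKM of the creatine kinases, and of Ampd3 in that of the AMP deaminases (vertical axes in percent, from 0), by group. Points are libraries and bars are group means; SHAM replicate 2 has the lowest share in all 3 panels (3.67%, 0.0371% and 0.273%).

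Values of the fibre genes are given beside those of Ckmt2 and Ampd1. SHAM replicate 2, with the highest Myh4 (6969 FPKM) and lowest Myh7 (416 FPKM), had the lowest Ckmt2. DN replicate 3, with the lowest Myh4 (827 FPKM) and highest Myh7 (1949 FPKM), had the highest Ckmt2. Ampd1 was highest in SHAM replicate 2 and lowest in DN replicate 1, where Myh4 was at 1009 FPKM. Summed FPKM of 7 slow fibre markers ran from 4177 to 15097 in SHAM, 15455 to 21181 in DN and 7433 to 17133 in DN-SM. That of 10 fast fibre markers ran from 71641 to 108484, 78641 to 86999 and 91726 to 107694. Of these 17 markers 0 passed the test in edgeR in any of the 3 comparisons, where 4.26% of all genes did in DN against SHAM. Myh4 came nearest, with a log2 fold change of -2.11 in DN against SHAM (interval -3.32 to -0.9, edgeR adjusted p = 0.0625). Its DN libraries lay below all others. Of all genes, 6.91% were lower in DN than in SHAM without overlap, and 11.4% higher in DN-SM than in DN. The median log2 fold change in DN against SHAM was 0.78 over the slow markers. It was -0.31 over the fast markers, with Myh1, Myh2 and Myl11 above 0. The part of these markers in the members' values was not tested.

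**Figure D5:**
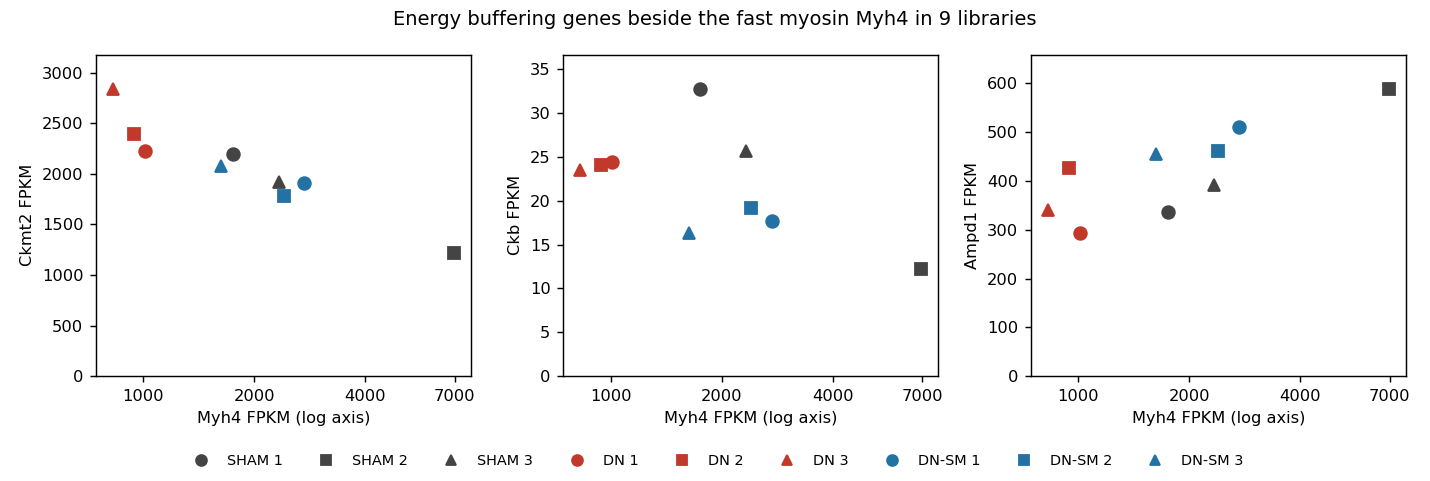
FPKM of Ckmt2, Ckb and Ampd1 (vertical axes, from 0) against that of the fast myosin Myh4 (horizontal, log axis) in each library, coloured by group and shaped by replicate. The library with the most Myh4, SHAM replicate 2 at 6969 FPKM, has the least Ckmt2 (1213) and Ckb (12.3) and the most Ampd1 (589).

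Genes with the most similar pattern were taken as the 3 with the highest Pearson correlation of log2 CPM over the 9 libraries, among 5403 genes with a mean of at least 5 FPKM. The libraries share their groups, and the coefficients are descriptions only. For Ckmt2 they were the small heat shock protein Hspb1 (0.99), the cytosolic aspartate aminotransferase Got1 (0.98) and the matrix proteoglycan Bgn (0.98). Ampd1 was nearest to the fast troponin C gene Tnnc2 (0.97), the vesicle coat gene Sec23a (0.96) and Cmbl (0.95). For Ckm they were the glucose 6-phosphate transporter Slc37a4 (0.94), the GTPase Rheb (0.94) and the fast troponin I gene Tnni2 (0.93). The nearest to Ckb were the receptor tyrosine kinase Axl (0.97), Dap (0.96) and the endocytic receptor Lrp1 (0.96). Without SHAM replicate 2 these 12 coefficients ran from 0.91 to 0.98. Slc6a8 was nearest to Cuedc1 (0.94), Snx3 (0.94) and Kbtbd4 (0.92), and Gatm to Ankrd10 (0.93), Gnptg (0.91) and Ets2 (0.91). Ampd3 was nearest to Tango2 (0.92), Ddx56 (0.92) and Dffa (0.90), and Ak1 to Mccc2 (0.90), G3bp1 (0.89) and Ndufa10l1 (0.85). With SHAM replicate 2 left out, the coefficients of Ampd3 were 0.87, 0.90 and 0.86, and those of Ak1 0.89, 0.88 and 0.85. Those of Slc6a8 and Gatm then ran from 0.90 to 0.95.

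The rest of the pathway was read from 7 lists with 47 genes, of which 44 matched a measured gene and 39 were tested. In DN against SHAM 1 of the 39 rose, beside 2.57% of all genes, and 0 fell, beside 1.70%. An unadjusted p under 0.05 was reached by 13 of the 39, beside 22.3% of all genes. The gene that rose was Ada, adenosine deaminase, at 4.02, 4.63 and 4.61 FPKM for SHAM, 8.34, 7.32 and 10.7 for DN, and 6.83, 7.05 and 4.81 for DN-SM. All DN libraries were above all others. Of all genes tested, 15.9% were higher in DN than in SHAM without overlap, and 21.3% lower in DN-SM than in DN. The share of genes with both was not counted. For Ada the log2 fold change in DN against SHAM was 0.90 (SE 0.213, edgeR adjusted p = 0.0377). Leaving out 1 library ended this call for SHAM replicate 1 (edgeR adjusted p = 0.0943) and 2 (0.0658), for any DN replicate (0.0919, 0.059 and 0.149 for 1, 2 and 3), and for DN-SM replicates 1 and 2 (0.059 and 0.0571). It did not pass either when the DN-SM libraries were left aside (0.0679), with the replicate block (0.0646) or by limma on log2 FPKM with no filter (0.0549). In DN-SM against DN and in DN-SM against SHAM 0 of the 39 passed in edgeR, beside 0.00987% and 0.839% of all genes, and DESeq2 called 1 in each. An unadjusted p under 0.05 was reached by 8 and 2 of them, beside 17.6% and 12.8% of all genes.

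In each list without a call the gene with the smallest p was taken. Aprt, which salvages adenine to AMP, was at 35.8, 25.9 and 33.4 FPKM for SHAM, 41.9, 46.6 and 45.5 for DN, and 30.3, 28.6 and 26.2 for DN-SM. All DN libraries were above all others, where 15.9% of genes were higher in DN than in SHAM without overlap and 21.3% lower in DN-SM than in DN. The log2 fold change of Aprt in DN-SM against DN was -0.56 (SE 0.142, edgeR adjusted p = 0.144; DESeq2 adjusted p = 0.0427). Among the AMP deaminases Ampd2, the widely expressed form, averaged 2.32 ± 0.32 FPKM over SHAM and 3.69 ± 0.601 over DN libraries (0.61 on the log2 scale, edgeR adjusted p = 0.0912). Slc25a4, the muscle carrier that exports ATP from mitochondria, averaged 2272 ± 314.8 FPKM over DN and 2690 ± 57.3 over DN-SM libraries (log2 fold change 0.34, adjusted p = 0.211). Of the genes for the AMP-activated protein kinase, Cab39, a scaffold of its upstream kinase, had a log2 fold change of -0.64 in DN against SHAM (edgeR adjusted p = 0.0815, DESeq2 adjusted p = 0.0322). In DN-SM against DN it was 0.64 (edgeR adjusted p = 0.167, DESeq2 adjusted p = 0.0736). There Cab39 passed by limma with sample weights (adjusted p = 0.0395), and by edgeR without SHAM replicate 3 (0.0141) and with these groups alone (0.00772). Without DN replicate 1 its edgeR adjusted p was 0.382. Prkag2, a regulatory subunit, had a log2 fold change of 0.99 in DN-SM against SHAM (edgeR adjusted p = 0.0904; DESeq2 adjusted p = 0.0253). Ak6, Adss2, Slc25a5, Prps1 and Ppat were also taken in this way, with edgeR adjusted p from 0.121 to 0.508.

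Markers of other cells were measured beside the members. Of 9 Schwann cell and nerve markers 4 rose in DN against SHAM, with summed FPKM of 74.2 to 81.7 in SHAM and 159.2 to 335.9 in DN, and of 5 endothelial markers 3 rose, with 85.5 to 96.2 and 127.9 to 160.0. Of 8 macrophage and leukocyte markers, 6 fibroblast markers, 4 adipocyte markers tested, 5 red blood cell and 5 smooth muscle markers 0 passed in edgeR. In DN-SM against SHAM 1 endothelial marker rose and 0 of the others did. The part of these cells in the values of Gatm, Ada and Ckmt2 was not tested.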

How the data were processed

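Each of the 9 libraries had 1 table of genes. The expected counts are, per the file headers, the estimates RSEM writes, not normalized, and the deposited FPKM values are, per the file headers, scaled to transcript length and fragments. GATK, HISAT2, RSEM and the build rn6 are named in the submitters' processing notes, without versions, settings or order, and strandedness is not given in the sources used here. The deposited length column, other data per gene, was not used in a test. Genes not listed in a table were set to 0. Of 13752 IDs, 13649 were named by gene ID and 7 by accession from RefSeq (GRCr8), and 96 stayed without a symbol. No library was a copy of another: counts of replicate pairs differed by a chi-square per degree of freedom of 7.74 or more.

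Expected counts were rounded and tested with edgeR 4.0.16 in R 4.3.3 (TMM factors, filterByExpr with a minimum count of 10 and total of 15, robust quasi-likelihood F test, two-sided). All 9 libraries entered 1 fit with the group as its term, and p-values were adjusted over 10129 genes by the Benjamini-Hochberg method with a threshold of 0.05. The SE is the log2 fold change divided by the root of F, and intervals are at 95%. Levels are the authors' FPKM, with mean ± SD. Alternatives used DESeq2 1.42.0, limma 3.58.1 (log2 FPKM, pseudocount 1 or 0.1), other scalings and filters, the replicate number as a block, fits of 2 groups and each library left out. The edgeR test of DN against SHAM was also run on simulated counts, drawn around a common mean per gene with set changes in some genes of DN. No library was set apart there as SHAM replicate 2 was here, so that run does not cover such a spread. Replicate numbers did not pair the libraries.

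The members, gene lists, motifs and the rule for named genes were chosen with earlier results of these data known. Named are the 8 members, list genes past the threshold or, in a list without any, the gene with the smallest p, the 3 genes most like each member, and Myh4 and Myh7. Adss1, Ak9 and Nt5c2 were not analysed here, and Ckmt1, Ak4, Ak5, Ak7 and Ak8 were below the count filter. For 1 list and comparison the gene taken by this rule is not reported here.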

Additional observations from a re-analysis of the deposited data

How the results depend on the processing

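Over 504 values of the 8 members under the alternatives, 472 kept their sign and their side of the threshold, 4 passed only under the alternative and 28 turned sign. The 4 were Gatm in DN-SM against SHAM by DESeq2 and without SHAM replicate 2, Ckb in DN-SM against SHAM without SHAM replicate 2, and Ampd1 in DN-SM against DN with SHAM left aside. None of the 28 had an adjusted p under 0.6, and the cause was not tested. In DN against SHAM, Ckb turned to 0.007 with library sizes counted without the 20 most abundant genes, 0.019 with the replicate block, and 0.131, 0.141 and 0.131 by limma on log2 FPKM (pseudocount 1, 0.1, and 1 without a filter). In DN-SM against DN, the same limma fits gave Ampd3 -0.01, -0.015 and -0.01 and Slc6a8 -0.08, -0.082 and -0.08; on this scale the median of all genes was -0.092 to -0.041 with a pseudocount of 1 and -0.109 with 0.1. With 1 library left out, the log2 fold changes in DN against SHAM ran from -0.251 to 0.023 for Ckm, -0.308 to 0.198 for Ckb and -0.418 to 0.131 for Ak1. In DN-SM against DN they ran from -0.003 to 0.271 for Ckm, -0.046 to 0.503 for Ak1, -0.118 to 0.287 for Ampd3 and -0.053 to 0.085 for Slc6a8. In DN-SM against SHAM they ran from -0.122 to 0.154 for Ckm, -0.034 to 0.247 for Ckmt2, -0.171 to 0.256 for Ak1 and -0.101 to 0.441 for Ampd1.

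The number of members called was 0 in DN against SHAM under every alternative run. It was 1 in DN-SM against DN in the fit of these groups alone, and in DN-SM against SHAM 1 by DESeq2 and 0 to 2 with a library left out. Of the pathway genes, 1 was called in DN against SHAM, 2 with upper-quartile factors, 3 by DESeq2 and by voom with sample weights, 0 with the replicate block, by limma on log2 FPKM without a filter and in the fit of 2 groups, and 0 to 4 with a library left out. In DN-SM against DN 1 was called by DESeq2, 4 by voom, 3 in the fit of 2 groups and 0 to 2 with a library left out, and in DN-SM against SHAM 1 by DESeq2. Over all genes, DN against SHAM had 432 calls, 770 by DESeq2, 278, 250 and 131 by the 3 limma fits, 156 in the fit of 2 groups and 58 to 1183 with a library left out. DN-SM against DN had 1 call, 222 by DESeq2, 628 by voom, 0 by limma with a pseudocount of 0.1, 716 in the fit of 2 groups and 0 to 416 with a library left out. DN-SM against SHAM had 85 calls, 266 by DESeq2, 39 with the replicate block, 47, 43 and 25 by the limma fits, 28 in the fit of 2 groups and 15 to 137 with a library left out. The replicate block changed no call of a member; same-numbered libraries correlated at -0.05 to 0.11 in their deviations from the group means.

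As a log2 ratio to the rest, the difference in DN against SHAM was 0.138 for Ckb and 0.109 for Ampd3, against negative differences in percent. With a library left out, the share differences in DN against SHAM ran from -0.0224 to 0.0184 points for Ckb and -0.525 to 0.181 for Ampd3, and for Ckmt2 in DN-SM against SHAM from -0.902 to 1.25. The members with the fewest counts were Gatm (22 to 106) and Ampd3 (56 to 183).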

Other observations

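Nt5c1a, a cytosolic nucleotidase of muscle that turns AMP into adenosine, varied widely between libraries and was chosen after its values were seen. Its FPKM was 7.71, 0.90 and 1.37 for SHAM, 0.81, 0.42 and 0.10 for DN, and 0.41, 3.34 and 0.33 for DN-SM. Its highest libraries, SHAM replicate 1 and DN-SM replicate 2, also had the highest Hbb (4517 and 4577 FPKM) and Alas2 (40.8 and 47.3 FPKM), genes of red blood cells. The part of red blood cells in these values was not tested. Prkag3, the regulatory subunit of the AMP-activated protein kinase known from fast muscle, was also chosen after its values were seen. It was highest in SHAM replicate 2 at 68.4 FPKM, the library with the most Myh4, and lowest in SHAM replicate 1 at 21.3. Within SHAM and within DN-SM, Prkag3 and Myh4 ranked the libraries alike. The DN libraries had less Myh4 than SHAM replicate 1 (1009, 942 and 827 against 1752 FPKM) but more Prkag3 (26.8, 28.7 and 36.6 FPKM). Within DN the order was reversed. The part of fast fibres in the Prkag3 values was not tested.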
